A study of Mus musculus with 4 samples.

Results

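Stra8 and Rec8 are a pair of mouse genes that come on as germ cells enter meiosis. They were taken by name, as all probe sets that the array annotation gives to either gene alone. Each gene had 1 probe set (1420568_at for Stra8, 1419147_at for Rec8), so 2 of the 45037 probe sets that are not controls, and 2 of 18193 genes, were followed. Both passed the filter on low signal, as did 13011 genes in all. The cells were gonocytes, the germ cells of the newborn testis, taken from mice at 2 days post partum and enriched with magnetic beads against the surface protein THY1. For 8 h they were kept in culture medium that lacked serum, growth factors and feeder cells, with 100 nM retinoic acid (RA) in 2 samples, called RA 1 and RA 2, and with ethanol, the vehicle, in 2 samples, called vehicle 1 and vehicle 2. Each sample was hybridised to 1 array. The labels give no strain or genotype and do not say whether samples came from separate litters or cultures. Every p thus rests on spread between these 4 arrays, which may be technical. The limma p-values also draw on the spread of other probe sets, not only on that of the gene itself.

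RA is the active form of vitamin A. It binds nuclear receptors of the RAR family, which pair with RXR receptors on DNA and switch on genes beside their binding sites. In germ cells Stra8 (stimulated by retinoic acid gene 8) encodes a DNA-binding protein that is needed for the start of the meiotic programme, and in the male it is first used earlier, as spermatogonia differentiate. Rec8 encodes the meiotic kleisin, the subunit that closes the cohesin ring in place of RAD21 and holds sister chromatids together through the first meiotic division. Both genes are known to respond to RA in germ cells. The RA comparison asked how each stood after 8 h in gonocytes, well before meiosis takes place in males.

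Stra8 lies on chromosome 6 and Rec8 on chromosome 14 in assembly GRCm38.p6, both on the plus strand. RefSeq gives the Stra8 gene as chr6:34920163-34939344 and the Rec8 gene as chr14:55618002-55625395. The 250 bases before the annotated start site of each are shown because the genes were higher together with RA and the motif that RA receptors bind is short and known. They span chr6:34920698-34920947 for Stra8 and chr14:55617916-55618165 for Rec8. Both gene models begin upstream of these start sites. The Stra8 model begins at 34920163, before its window, so the whole window lies within the model, and the Rec8 model begins at 55618002, inside its window. Capitals mark every copy, on either strand, of AGGTCA, the core motif of RA and related nuclear receptors. They also mark each CCAAT, the box bound by the factor NF-Y, which reads ATTGG when it lies on the minus strand. No marked copies overlap.
Stra8: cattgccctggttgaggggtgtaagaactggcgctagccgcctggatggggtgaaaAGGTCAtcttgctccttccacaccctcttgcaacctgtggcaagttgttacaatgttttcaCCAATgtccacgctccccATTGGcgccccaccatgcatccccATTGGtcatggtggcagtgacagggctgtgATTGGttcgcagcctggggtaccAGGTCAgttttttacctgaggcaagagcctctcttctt
Rec8: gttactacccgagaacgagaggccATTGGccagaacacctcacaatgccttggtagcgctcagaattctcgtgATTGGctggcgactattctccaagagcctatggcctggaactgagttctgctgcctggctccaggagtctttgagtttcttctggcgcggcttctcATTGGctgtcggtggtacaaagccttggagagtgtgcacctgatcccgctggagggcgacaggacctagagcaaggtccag

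The Stra8 window held 2 copies of AGGTCA, both on the plus strand, at positions -194 to -189 and -38 to -33 from the start site, with 150 bases between them. Among 32851 RefSeq promoter windows of the same length, 1.36% held 2 or more copies of AGGTCA and 14% held at least 1. When looser forms of the motif were also counted, 9.75% held 2 or more and 38.6% at least 1. By that count the Stra8 window still held 2 and the Rec8 window 0. Neither window held a direct repeat of such sites with 0 to 8 bases between them. The Rec8 window held 0 copies of AGGTCA, which says only that these letters are not in this stretch. Both windows held several CCAAT boxes, 4 in Stra8 and 3 in Rec8, and 2.79% of all windows held 3 or more. This box was searched for after the 2 sequences had been read. The motif CNCCTCAG, known to be bound by STRA8 itself, was in neither window and in 6.42% of all windows. The GC content was 54.8% for Stra8 and 56% for Rec8, against a median of 52.4% over all windows. The sequences and annotation are RefSeq's.

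Stra8 signals were 783 and 1477 on the arrays RA 1 and RA 2, against 188 and 53.3 on the arrays vehicle 1 and vehicle 2. All signals here are the authors' linear values on a common scale, and the lowest RA value lay well above the highest vehicle value. The means were 1130 ± 491 with RA and 121 ± 95.4 with vehicle (SD, n = 2 each). On the scale of log2(signal + 5), Stra8 was 10.2-fold higher with RA, a log2 change of 3.35 ± 0.53 (SE, 95% interval 2.13 to 4.57). This SE and interval are from limma, which borrows much of the variance estimate from other probe sets of like signal. The fit had 5.81 prior degrees of freedom, against 2 from the gene itself. On this scale the SD of Stra8 itself was 0.64 with RA and 1.22 with vehicle. Even the closest RA and vehicle arrays differed by 4.08-fold. By size of log2 change Stra8 ranked 1 of 13011 genes above the filter.

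Rec8 signals were 166 and 141 on the arrays RA 1 and RA 2, against 68.6 and 30 on the arrays vehicle 1 and vehicle 2. Here too the groups did not overlap, but the RA values lay close to each other and the vehicle values apart. The means were 153 ± 17.3 with RA and 49.3 ± 27.3 with vehicle (SD, n = 2 each). On the log2(signal + 5) scale, Rec8 was 3.11-fold higher with RA. Its log2 change was 1.64 ± 0.37 (SE, 95% interval 0.78 to 2.49, both from limma as for Stra8), and the closest RA and vehicle arrays differed by 1.98-fold. The SD of Rec8 itself on this scale was 0.16 with RA and 0.76 with vehicle. A gap of at least 2-fold on this scale, with RA above vehicle, was found in 0.177% of genes, and the reverse in 0.0538%. Stra8 was among the former and Rec8 just outside. In linear signal, at 141 against 68.6, Rec8 itself reached 2-fold. It ranked 17 of 13011 genes by log2 change, and 16 genes had a larger one. Of those 16 genes, 5 were on a list of other RA target genes (Cyp26a1, Rarb, Lrat, Dhrs3 and Stra6) and Stra8 was another. That list was chosen with earlier results of these arrays known, so the overlap is a description only.

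**Figure D1:**
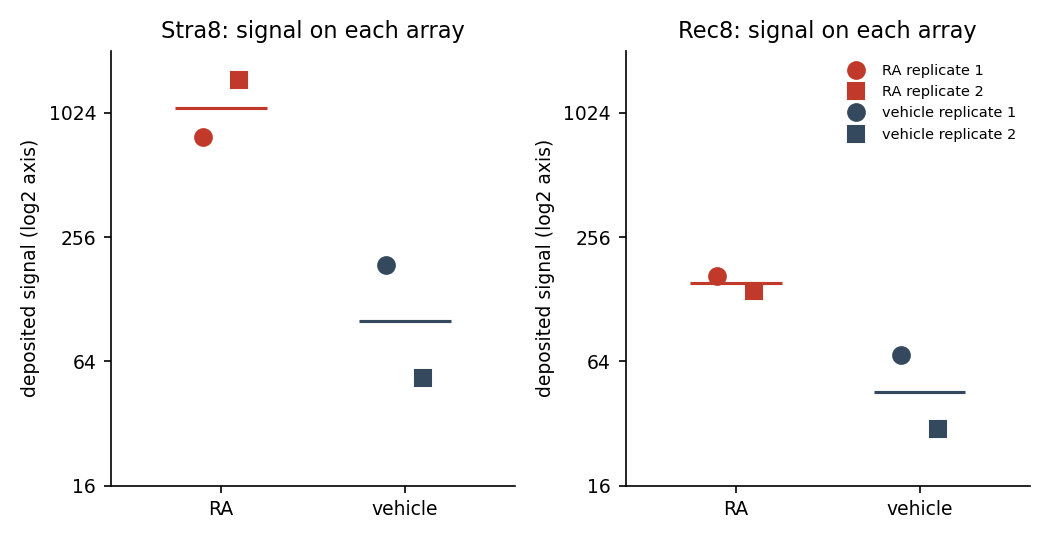
Deposited signal of Stra8 (left) and Rec8 (right) on each of the 4 arrays, on a log2 axis, with RA left of vehicle; points are single arrays and bars are geometric means of 2 arrays. Stra8 runs from 53.3 to 1477 and Rec8 from 30 to 166, and in both genes vehicle 2 is the lowest array.

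The 2 genes did not pass the test over the whole array. In limma the unadjusted p was 0.000248 for Stra8 and 0.00232 for Rec8, and the Benjamini-Hochberg adjusted p over 27022 probe sets was 0.391 for Stra8 and 1 for Rec8. At an adjusted p under 0.05 limma called 0 probe sets (0%), the smallest adjusted p being 0.147, while 743 had an unadjusted p under 0.05, 1.1% of probe sets being higher and 1.65% lower. An unadjusted p under 0.01 with a higher value was found in 0.366% of probe sets, the 2 members among them, and RA arrays lay above vehicle arrays in 14.1% of genes. An exact two-sided permutation test gave p = 0.333 for each gene, the smallest that 2 arrays against 2 can give. The size of both changes depended on the arrays used. The log2 change of Stra8 was 3.80 without RA 1, 2.89 without RA 2, 4.21 without vehicle 1 and 2.48 without vehicle 2. For Rec8 the log2 change was 1.53 without RA 1, 1.75 without RA 2, 2.17 without vehicle 1 and 1.10 without vehicle 2. The array vehicle 2, the lowest of the 4 for both genes, thus set the lower end of both changes when it was left out. Each of these fits has 1 residual degree of freedom and takes a lone array to vary like the pair in the other group. No p-value is given for them.

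**Figure D2:**
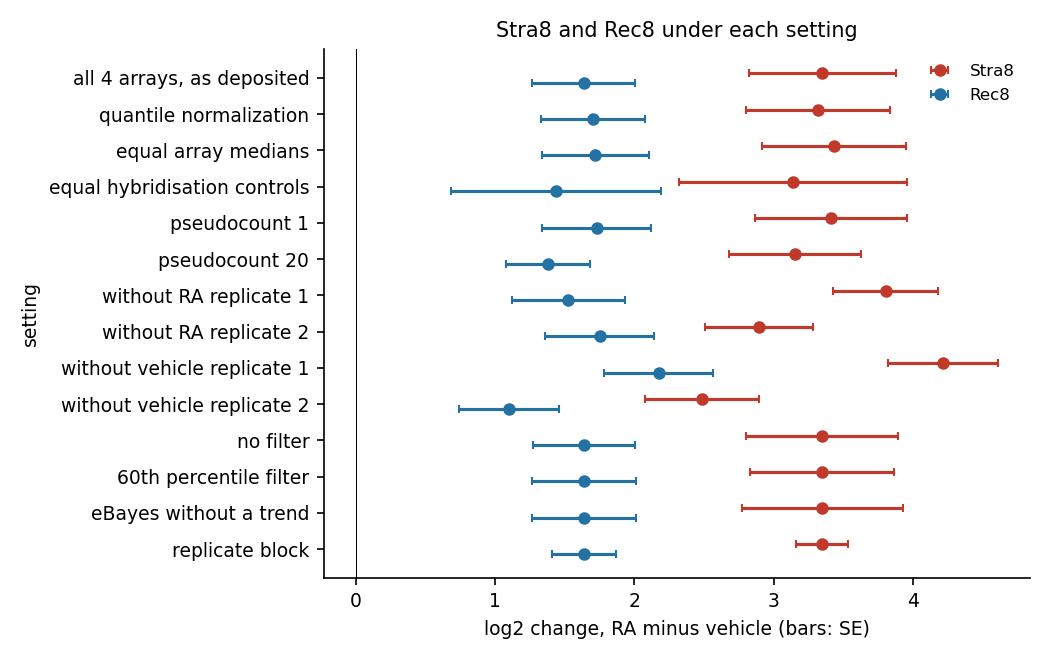
Log2 change of Stra8 (red) and Rec8 (blue), RA minus vehicle, under each setting (rows); bars are SE from limma. All values lie above 0, with Stra8 between 2.48 and 4.21 and Rec8 between 1.10 and 2.17, and Stra8 exceeds Rec8 in each row.

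The size of the RA difference was not the same in the samples numbered 1 and 2. For Stra8 the difference was 2.03 on the log2 scale between RA 1 and vehicle 1 and 4.67 between RA 2 and vehicle 2, which in linear signal is 4.16-fold and 27.7-fold. For Rec8 it was 1.21 between RA 1 and vehicle 1 and 2.06 between RA 2 and vehicle 2, or 2.41-fold and 4.71-fold in linear signal. Both genes thus differed more between the arrays numbered 2, Stra8 by the wider margin. Stra8 exceeded Rec8 by 0.82 on the log2 scale in the arrays numbered 1 and by 2.61 in those numbered 2. With 1 array per group and number, no test of this difference can be made, and the labels do not say that a shared number means a shared preparation. By rank among 13011 genes, Stra8 stood 8 in the arrays numbered 1 and 1 in those numbered 2, and Rec8 stood 53 and 13. Over all genes the spread of these differences was 0.34 (SD, log2) for number 1 and 0.40 for number 2.

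On the log2(signal + 5) scale, 5 of the 13011 genes were at least 4-fold higher with RA in both numbers, counted after the values had been seen. They were Stra8, Rarb, which encodes an RA receptor, Cyp26a1 and Dhrs3, which encode enzymes that lower RA or its precursor, and Tmem255a, which encodes a transmembrane protein. In linear signal further dim genes passed 4-fold in both numbers. Spon2, for instance, had signals of 36.0 and 59.0 with RA, against 6.13 and 5.81 with vehicle. At 2-fold or more on the log2(signal + 5) scale, 90 genes were higher in the arrays numbered 1 and 121 in those numbered 2. Rec8 was in both sets.

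**Figure D3:**
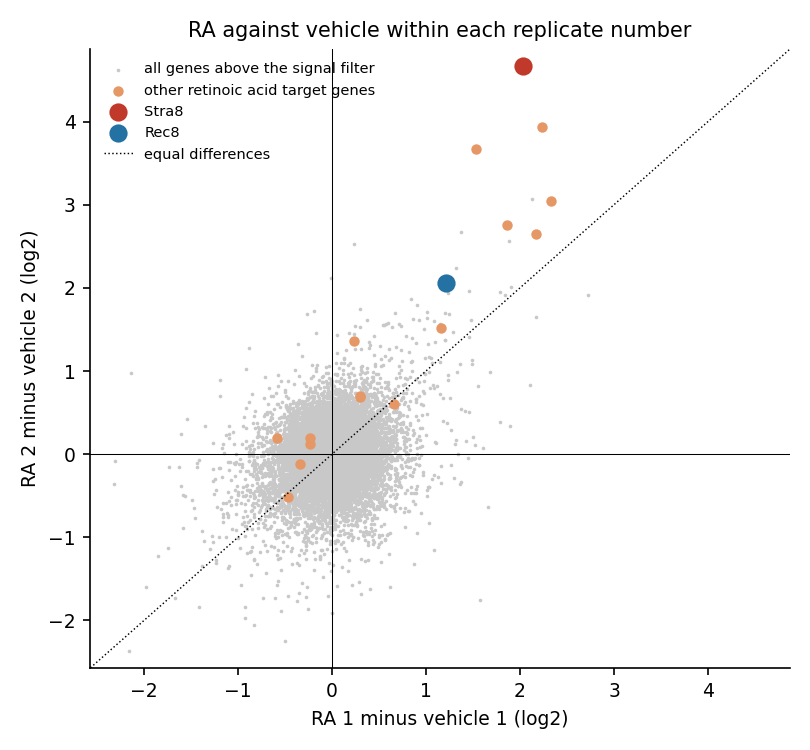
RA minus vehicle on the log2 scale for the arrays numbered 1 (x axis) and numbered 2 (y axis); grey points are 13011 genes, orange points other RA target genes, large points Stra8 and Rec8, and the dotted line marks equal differences. Stra8 at 2.03 and 4.67 and Rec8 at 1.21 and 2.06 both lie above the line.

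Arrays of the same group differed more for Stra8 than for most genes. Between the vehicle arrays Stra8 was 3.32-fold lower on vehicle 2 (log2 difference -1.73), and 99.7% of genes differed less in size. Between the RA arrays it was 1.88-fold higher on RA 2 (0.91), and 92.4% of genes differed less. The 2 arrays numbered 2 thus held both the highest and the lowest Stra8 signal. Rec8 shared the lower vehicle 2 array: it was 2.11-fold lower on vehicle 2 (log2 difference -1.07), and 97.9% of genes differed less. Its RA arrays were close, with RA 2 lower by 1.17-fold (-0.22), and 37.2% of genes differed less. The median size of such differences over all genes was 0.31 between the RA arrays and 0.23 between the vehicle arrays.

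**Figure D4:**
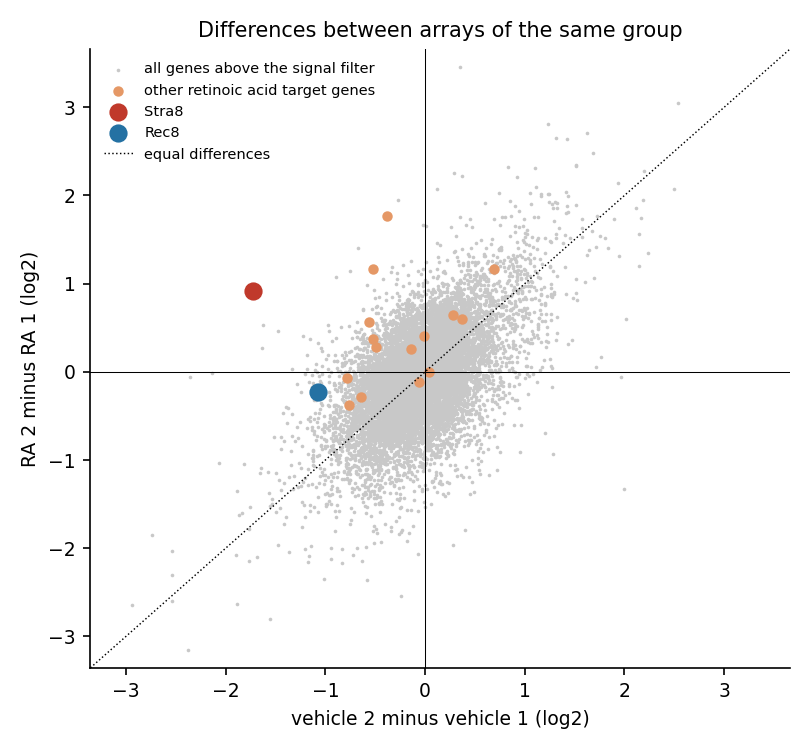
Differences between arrays of 1 group on the log2 scale, vehicle 2 minus vehicle 1 on the x axis and RA 2 minus RA 1 on the y axis, for 13011 genes (grey), other RA target genes (orange), Stra8 and Rec8; the dotted line marks equal differences. Stra8 lies at -1.73 and 0.91, far from the line, and Rec8 at -1.07 and -0.22.

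A drop of at least 2-fold on vehicle 2 together with RA arrays above both vehicle arrays was found in 9 genes, counted after the values had been seen, with Stra8 and Rec8 among them. The other 7 were Ccne1, a cyclin that acts at the start of DNA replication, Mtnr1a, a melatonin receptor, Krt73, a keratin, Kcnn4, a potassium channel, Rasgrp2, an activator of small GTPases, Cpm, a carboxypeptidase, and the predicted gene Gm4792. None of the 15 other RA target genes above the filter was in this set on that scale. Rarb fell from 14.9 on vehicle 1 to 6.56 on vehicle 2 in linear signal, but by a log2 difference of -0.78 on that scale. A set of 9 among 13011 genes is too small for this count to set the list apart. The log2 changes of the other 7 ran from 0.75 to 1.38, below those of Stra8 and Rec8. Some of the 7 were dim or met the rule narrowly. Signals on vehicle 2 were 1.80 for Gm4792 and 9.39 for Mtnr1a. Cpm separated by 132.5 on RA 2 against 131.6 on vehicle 1, and Ccne1 by 116.8 on RA 1 against 112.2 on vehicle 1.

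Likeness to each member was measured as the root mean square difference, over the 4 arrays, between log2 profiles centred on their own mean. For Stra8 the closest genes were Cyp26a1 at 0.46, Rarb at 0.58, Lrat, which esterifies retinol, at 0.68, Stra6, a receptor for retinol-binding protein, at 0.70, and Tmem255a at 0.78, where the median over all genes was 1.81. Cyp26a1 signals were 164 and 375 with RA, against 30.9 and 19.9 with vehicle, so it shared with Stra8 both the higher RA 2 array and the lower vehicle 2 array. Rec8 ranked 9 among the genes nearest to Stra8, at 0.97. For Rec8 the closest were Lexis1 at 0.20, Stmn2, a protein that destabilises microtubules, at 0.21, Kank4, an ankyrin repeat protein, at 0.23, Pgbd5, which derives from a transposase, at 0.28 and Tmem191c at 0.29. Kank4 signals were 343 and 189 with RA, against 120 and 58.2 with vehicle, a log2 change of 1.55 ± 0.39 (SE). Stra8 ranked 8949 by nearness to Rec8, as the measure counts the size of a change as well as its shape.

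Of 15 regulators of meiotic entry above the filter, RA arrays lay above vehicle arrays in 3 (Stra8, Cyp26b1 and E2f6) and below them in Dazl, and 11 overlapped, beside 14.1% of all genes higher and 12.6% lower. At an unadjusted p under 0.05, Stra8 and Cyp26b1 were higher and 0 were lower, and 0 passed the adjusted threshold in limma, where 1.41% of all genes were higher and 1.3% lower at an unadjusted p under 0.05. Cyp26b1 encodes the RA-degrading enzyme that keeps fetal male germ cells out of meiosis. It is also on the list of other RA target genes and is counted there too. Its signals were 161 and 254 with RA, against 69.4 and 85.5 with vehicle, a log2 change of 1.34 ± 0.28 (SE). Without Stra8 the median log2 change of the list was 0.0025, near the 0.015 of all genes. Dazl, an RNA-binding protein that makes germ cells able to respond to RA, stood at -0.20 ± 0.22, Dmrt1, a repressor of Stra8 in spermatogonia, at 0.26 ± 0.25, and Meioc and Ythdc2, partners in the control of meiotic messages, at -0.06 ± 0.33 and 0.05 ± 0.30. Meiosin, whose product binds STRA8, has no probe set of its own in the annotation and was not analysed here.

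Rec8 stood apart in size from the other cohesin genes. Of 21 cohesin subunits and regulators above the filter, RA arrays lay above vehicle arrays in Rec8, Stag1 and Pds5a and below them in 0, and 18 overlapped, beside 14.1% and 12.6% of all genes. The other 20 had log2 changes between -0.28 and 0.46 and a median of -0.0085, and none of them had an unadjusted p under 0.05 in limma, against 1.41% of all genes that did with a higher value. The upper end was Smc1b, the meiotic SMC subunit, with signals of 460 and 298 with RA, against 346 and 207 with vehicle, where the groups overlapped (0.46 ± 0.30, SE). Stag3, the meiotic subunit that binds the kleisin, stood at 0.02 ± 0.22, and Rad21, the mitotic kleisin, at -0.15 ± 0.24. No test of Rec8 against these partners was made.

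Genes that act later, in the meiotic chromosome axis, synapsis and recombination, had 26 members above the filter. RA arrays lay above vehicle arrays in Syce2 and Psmc3ip and below them in Ankrd31, Mlh3 and Terb1, and 21 overlapped, beside 14.1% and 12.6% of all genes. None had an unadjusted p under 0.05 in limma, and the log2 changes ran from -0.40 to 0.44 with a median of 0.076. Syce2, a central element protein of the synaptonemal complex, stood at 0.35 ± 0.19, and Ankrd31, which takes part in placing recombination breaks, at -0.40 ± 0.29 (SE). Sycp3, an axis protein, had signals of 999 and 436 with RA, against 794 and 533 with vehicle, and the groups overlapped.

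The list of other RA target genes, chosen with earlier results of these arrays known, ranged in log2 change from -0.49 (Btg2) to 3.08 (Cyp26a1), with a median of 0.63. The change reached that of Rec8 in 5 of its 15 members above the filter and that of Stra8 in 0. RA arrays lay above vehicle arrays in 9 and below them in Btg2, and 5 overlapped, beside 14.1% and 12.6% of all genes. As the list was chosen with results known, its counts are a description. Rarb and Lrat had low vehicle signals, 14.9 and 6.56 for Rarb and 8.73 and 5.54 for Lrat, below the lowest geometric mean signal that passed the filter, 15.5, so they passed it through their RA arrays. Among the 4 with the smallest p, Stra6 was higher by 2.31 ± 0.29, Rarb by 2.69 ± 0.35, Cyp26a1 by 3.08 ± 0.41 and Dhrs3 by 2.41 ± 0.39 (log2, SE), so that the log2 changes of all 4 lay between those of Rec8 and Stra8. The adjusted p in limma was 0.209 for Stra6 and Rarb, 0.212 for Cyp26a1 and 0.391 for Dhrs3. Over the 4 lists together, RA arrays lay above vehicle arrays in 16 of 76 genes and below them in 5. With 1 array fewer the groups separate more easily. Without RA 1 the counts were 21 higher and 28 lower, beside 33.7% and 35.1% of all genes. Without RA 2 they were 46 and 10, beside 38.8% and 32.2%. Without vehicle 1 they were 39 and 10, beside 34.6% and 26%, and without vehicle 2 they were 20 and 20, beside 24.8% and 28.2%.

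**Figure D5:**
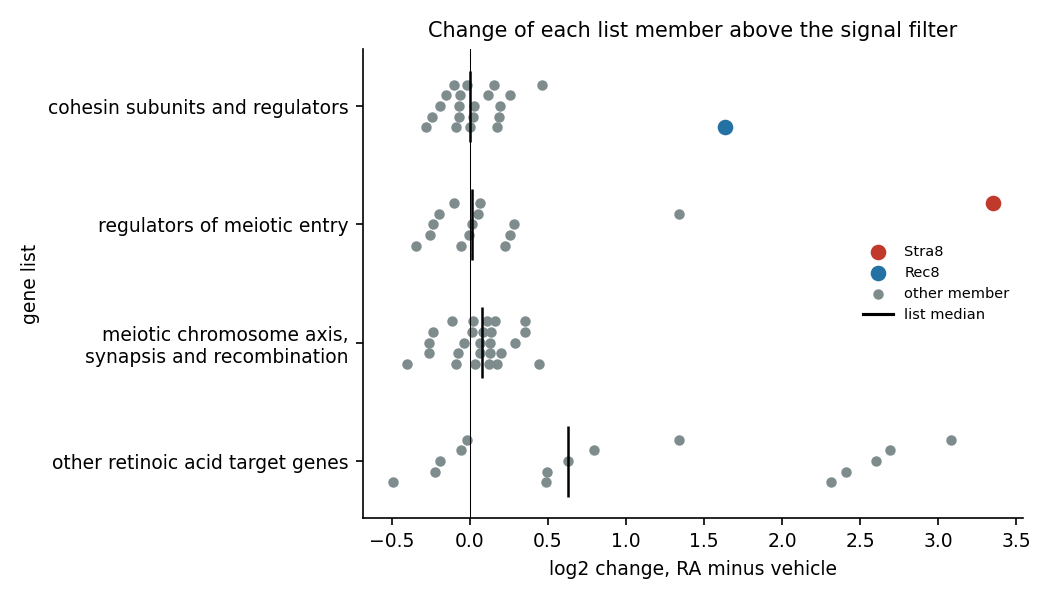
Log2 change, RA minus vehicle, of each gene above the filter in 4 lists (rows); small points are single genes, large points Stra8 and Rec8, and black bars are list medians. Rec8 at 1.64 lies above all other cohesin genes, which end at 0.46, while the RA target genes reach 3.08.

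The arrays differed in ways that treatment does not name. After trimming 2% of probe sets at either end, each array averaged 125. Bacterial and phage control transcripts, which are added to each hybridisation, averaged 893 and 1781 with RA, against 899 and 1329 with vehicle (geometric means of 18 probe sets), so both arrays numbered 2 were higher. The ratio of 3' to 5' signal was higher with RA, at 2.08 and 2.32 for Actb, against 1.72 and 1.73 with vehicle, and at 1.85 and 2.00 for Gapdh, against 1.56 and 1.47. Dividing each array by its control transcripts moved the median of all probe sets to -0.20, with Stra8 at 3.14 ± 0.82 and Rec8 at 1.44 ± 0.76 (SE). The unadjusted p in limma was then 0.000119 for Stra8 and 0.0572 for Rec8. Rec8 thus no longer had an unadjusted p under 0.05, and the adjusted p for Stra8 was 0.830. This fit has an infinite prior, so its p-values take nothing from a gene's own spread. The lower unadjusted p of Stra8 is no gain in evidence, since its SE rose from 0.53 to 0.82. The part of these array differences in the changes of Stra8 and Rec8 was not tested.

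Germ cell markers were present on all arrays, with Ddx4 signals of 1300 and 1121 with RA, against 1305 and 1289 with vehicle. The summed signal of 11 germ cell markers was 9925 and 10531 with RA, against 10796 and 10645 with vehicle. Single markers differed in direction between the vehicle arrays, with Dnd1 at 71.8 on vehicle 1 and 43.1 on vehicle 2, Mael at 1645 and 1351, and Sall4 at 2268 and 2530. The part of germ cell content in the gap of Stra8 between the vehicle arrays was not tested. RA arrays lay below vehicle arrays in 3 of the 11 (Dazl, Zbtb16 and Ret) and above them in 0, beside 12.6% and 14.1% of all genes. Zbtb16, a transcription factor of undifferentiated germ cells, had signals of 368 and 174 with RA, against 701 and 699 with vehicle. Ret, the receptor for the growth factor GDNF, had 254 and 277 with RA, against 514 and 562 with vehicle. Their part in the RA differences was not tested. Markers of other testis cells were present as well. Summed signals were 4707 and 5979 with RA, against 4233 and 5578 with vehicle, for 10 Sertoli cell markers, and 8588 and 11327, against 8028 and 10410, for 8 peritubular and stromal markers. For 5 Leydig cell markers they were 1555 and 2033 with RA, against 1419 and 2590 with vehicle, and for 7 endothelial markers 306 and 356, against 267 and 242. Macrophage markers (6 genes) gave 402 and 624 with RA, against 360 and 765 with vehicle, and mast cell markers (6 genes) 2168 and 6632, against 3344 and 7197. Among markers above the filter, RA arrays lay above vehicle arrays in 2 of 9 Sertoli cell markers (Sox9 and Wt1). They did so in 3 of 7 endothelial and 1 of 8 stromal markers, beside 14.1% of all genes. They lay below in 1 of 8 stromal and 2 of 5 mast cell markers, beside 12.6%. These 2 were Mcpt1, with a log2 change of -2.26, and Mcpt4, with -0.95. The part of these markers in the RA differences of Stra8 and Rec8 was not tested. Thy1 itself had signals of 265 and 141 with RA, against 329 and 168 with vehicle. The summed Sertoli, stromal, Leydig, macrophage and mast cell signals were thus higher, and Thy1 lower, on both arrays numbered 2 than on those numbered 1, and their part in the vehicle gap was not tested. Amh, a defining Sertoli cell gene, was below the filter, at 9.01 and 7.11 with RA, against 1.66 and 11.9 with vehicle. No marker was under 5 on all 4 arrays. In such bulk samples fewer cells of a type and less RNA per cell cannot be told apart.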

How the data were processed

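Total RNA was amplified with the NuGEN Ovation system and hybridised to Affymetrix Mouse Genome 430 2.0 arrays, which were quantified with GCOS 1.2, per the labels' protocols. The deposited table of the authors holds a linear intensity for every probe set on every array. The summary of probes and the scaling of arrays are not given in the sources used here.

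After 64 control probe sets had been left out, 5 was added to each intensity (the 20th percentile over the 4 arrays, as a whole number) and log2 taken. This understates fold changes of dim genes. Probe sets at or above the 40th percentile of mean log2 value were tested, 27022 of 45037. The test was limma 3.58.1 (R 4.3.3) with eBayes and a trend on intensity, two-sided, without a replicate term, and p-values were adjusted by Benjamini-Hochberg. The procedure was tested on simulated data with independent noise on each array. That test does not cover variation shared by arrays of the same number. Symbols came from the platform annotation, updated through Entrez IDs, and the brightest probe set stood for a gene. The number of arrays limits the precision.

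Groups came from the sample titles. The members, the gene lists and their tests were chosen with earlier results of these data known. Genes were named by rule: Stra8 and Rec8, up to 4 members of each list with separated groups and an unadjusted p under 0.01 (or the 2 with the smallest p), the 5 genes nearest to each member, and partners on the lists. Other list members and markers named, and genes counted after their values were seen, fall outside this rule. Alternatives changed the scaling, pseudocount, filter, variance model and arrays. Plots were made in matplotlib 3.10.9 (Python 3.11.15).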

Additional observations from a re-analysis of the deposited data

How the results depend on the processing

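Stra8 and Rec8 were higher with RA under each alternative tried, which were quantile normalization, equal array medians, equal hybridisation controls (added after the data were seen), a pseudocount of 1 or 20, no filter or the 60th percentile, no variance trend, the replicate number as a block, and each array left out. Without 1 array the log2 change lay between 2.48 and 4.21 for Stra8 and between 1.10 and 2.17 for Rec8, probe sets past an adjusted p of 0.05 numbered 0 to 50 higher and 0 to 102 lower, and list members with separated groups 20 to 46 higher and 10 to 28 lower. With the replicate block the log2 changes stayed at 3.35 and 1.64, both past an adjusted p of 0.05 in limma. In that fit 221 probe sets were called higher and 322 lower. That fit has 1 residual degree of freedom and an infinite prior, so its SE (0.19 for Stra8) takes nothing from the gene's own spread, in which the differences were 2.03 and 4.67 in the arrays numbered 1 and 2. Deviations from the group means correlated at 0.55 across genes between same-numbered arrays, yet with 2 pairs and no label on the number this is a hint from the data only. Separated list members, 16 higher and 5 lower in the text, were 8 and 1 with equal hybridisation controls. With quantile normalization, equal array medians or the 60th percentile filter, 3 were lower. With equal hybridisation controls, all probe sets at an unadjusted limma p under 0.05 also fell, from 743 to 108. The share of all genes separated was not counted under these settings, so these shifts cannot be tied to the lists. The causes were not tested. Since each gene has 1 probe set, the mean of all probe sets gave the same values, and the permutation p cannot pass the threshold in any setting.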
